A study of Homo sapiens with 6 samples.

Results

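The genes described here are 81 membrane transporters of families grouped as carriers of sugars, amino acids and peptides. They were measured by 189 probe sets among 41091 that name 1 gene (19775 genes in all). Some of the 81 carry other substrates, such as choline (SLC5A7), lactate (SLC5A12) or noradrenaline (SLC6A2). A probe set belonged if its gene symbol was SLC1A, SLC2A, SLC3A, SLC5A, SLC6A, SLC7A, SLC15A, SLC36A or SLC38A followed by a number, a rule that used no measured value. Another 5 probe sets name such a gene together with others, SLC2A3 with SLC2A14 and SLC6A8 with a pseudogene, and were left out. The samples were 6 Affymetrix arrays, all of Caco-2, an established line from a human colorectal adenocarcinoma that serves as a model of the intestinal epithelium. In 3 of them the cells had been transfected with a negative control siRNA, and in the other 3 with an siRNA against SDC1, the gene of the heparan sulfate proteoglycan syndecan-1. Replicates are described as independent, without a word on separate cultures, so the p-values rest on array-to-array spread that may be technical. The sources used here do not give siRNA sequences, doses, time after transfection or days in culture.

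Enterocytes take up dietary sugars, amino acids and short peptides through carriers of the apical membrane and release them through carriers of the basolateral membrane. The SLC5 carriers are driven mostly by sodium, whereas the SLC2 (GLUT) carriers are facilitative. Amino acids are carried by several families that overlap in substrate, and some SLC7 light chains reach the membrane only when bound to an SLC3 heavy chain. The SLC15 family carries di- and tripeptides or histidine with protons. Many members of the SLC1 and SLC6 families are best known for clearing transmitters in the nervous system.

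Values are on a log2 scale and centred, so that 0 is the middle of the 6 arrays for every probe set. They show differences between arrays but no levels. A rough brightness was read from the spacing of the stored numbers, which places a probe set at a log2 signal of 8 to 16, 4 to 8 or below 4. Chance places a few a class too high. All 6 arrays had to show the spacing of a class, so 1 array under a bound can place a probe set a class lower. The siRNA target SDC1 was at 0.37, 0.35 and 0.35 with control siRNA and at -0.50, -0.62 and -0.34 with SDC1 siRNA, a difference of -0.84 ± 0.08 (log2, standard error; 3 arrays per group; limma adjusted p = 0.0238). The call was lost with the replicate number as a block (adjusted p = 0.0929), after quantile normalization (adjusted p = 0.0831) and in all 6 fits with 1 array left out, whose differences ran from -0.92 to -0.78 and adjusted p from 0.0615 to 0.326. Of 11 measured markers of the intestinal epithelium 5 were in the brightest class, and 3 enterocyte markers, KRT20, FABP1 and APOA1, were in the dimmest. Of these 11 markers 0 reached an unadjusted p under 0.05, where 10.6% of all genes did. Of 6 fibroblast markers 3 were lower with SDC1 siRNA at that level, and their median over the arrays was -0.03, 0.11 and 0.06 with control siRNA against -0.04, -0.02 and 0.01 with SDC1 siRNA. Of 4 endothelial markers 2 were higher, with medians of 0.01, -0.23 and -0.04 against 0.08, 0.09 and 0.02, as were 1 of 3 leukocyte and 1 of 4 neuronal markers. After adjustment 0 of any list passed. With so few markers a list nothing is read from these counts, and the part of these markers in the results below was not tested. Among the members 23 genes were in the class of 8 to 16, 41 in that of 4 to 8 and 17 below 4.

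No transporter gene changed past the threshold with SDC1 siRNA. In the limma fit of all 19775 genes, 0 of the 81 passed a Benjamini-Hochberg adjusted p of 0.05, where 0.0253% of all genes did, and the lowest adjusted p of a member was 0.261. At an unadjusted p under 0.05 there were 10 members (12.3%), against 10.6% of all genes. The split was 7 higher to 3 lower, with 5.43% of all genes higher and 5.19% lower at that level. The arrays of the groups did not overlap for 18 members, 12 of them higher and 6 lower, which is 22.2% against 16.7% of all genes (8.26% higher and 8.47% lower). The share at an unadjusted p under 0.05 is near the background, and the share without overlap lies above it. Both counts lean to higher members, where those of all genes are split almost evenly. Neither share was tested, because genes of a set are not replicates of a condition. Nothing about the transporters as a set is read from them. The differences ran from -0.24 (SLC6A14) to 0.38 (SLC6A12) on the log2 scale, with a median of 0.03 beside 0.01 over all genes. A 1.5-fold difference was reached by 0 members and by 0.152% of all genes. The 95% interval lay within 1.5-fold in both directions for 78 of the 81, as it did for 96.9% of all genes. The exceptions were SLC6A12, SLC5A11 and SLC38A6. Fewer cells of a type and less RNA per cell cannot be told apart in such bulk samples.

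**Figure D1:**
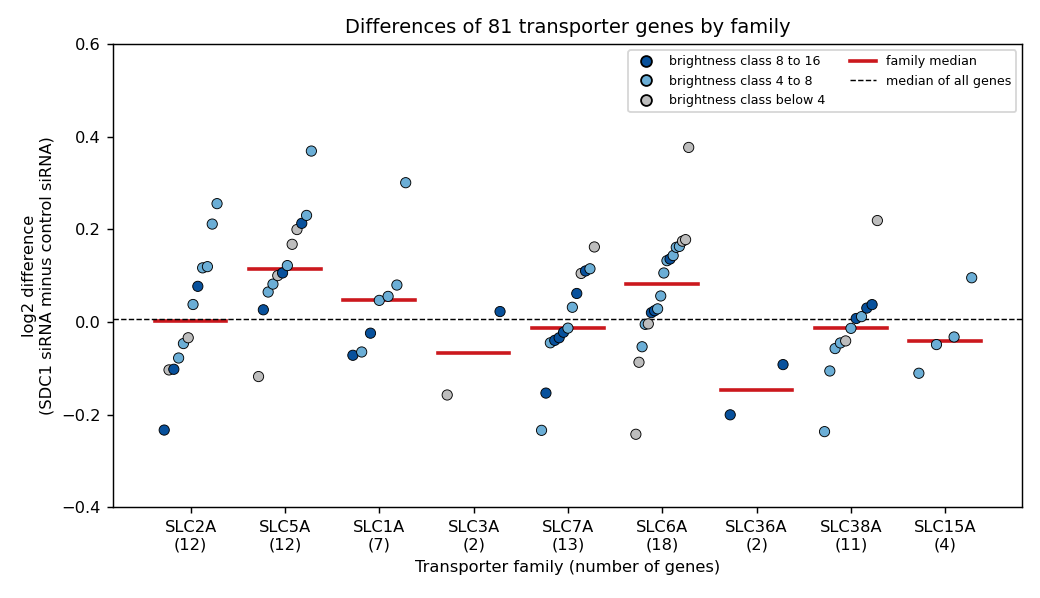
Log2 difference of each of the 81 transporter genes (SDC1 siRNA minus control siRNA, vertical axis) by family (horizontal axis, number of genes in brackets). Points are genes coloured by brightness class, red lines are family medians and the dashed line is the median of all genes at 0.01; 11 of 12 SLC5A genes lie above 0, while 0 of 81 genes passed an adjusted p of 0.05.

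The families differed in where their genes lay around 0, and none of these shifts was tested, because genes of a family are not replicates of a condition. The sodium-coupled SLC5A family had the highest median, 0.11, with 11 of 12 genes above 0 (91.7%, where 52.1% of all genes were above 0). The median over its genes was -0.08, -0.22 and -0.01 in the control arrays and 0.07, 0.05 and 0.06 in the SDC1 siRNA arrays. All SDC1 siRNA arrays were therefore above all control arrays, and control replicate 2 was the lowest. With 1 array left out the family median stayed between 0.09 (control replicate 2) and 0.19 (control replicate 3). In the SLC6A family 13 of 18 genes were above 0, with a median of 0.08, which was 0.042 without control replicate 2 and 0.046 without SDC1 siRNA replicate 2. The SLC1A median was 0.05, with 4 of 7 genes above 0. It was -0.015 without control replicate 1, 0.0056 and 0.027 without SDC1 siRNA replicates 3 and 2, and 0.096 without control replicate 3.

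The facilitative sugar carriers of the SLC2A family were split evenly, 6 above and 6 below 0, with a median of 0.00, which was 0.059 without control replicate 3. The SLC7A family had 6 genes above and 7 below 0 with a median of -0.01. The SLC38A family had 5 above and 6 below with a median of -0.01, which was 0.028 without SDC1 siRNA replicate 1 and -0.042 without control replicate 1. In the peptide family SLC15A 3 of 4 genes were below 0 (median -0.04). That median was -0.0051 without SDC1 siRNA replicate 3, -0.018 without control replicate 2, -0.026 without SDC1 siRNA replicate 2, -0.079 without control replicate 1 and -0.088 without SDC1 siRNA replicate 1. Both SLC36A genes were below 0 (median -0.15, or -0.054 when every probe set was averaged), and the SLC3A heavy chains lay on either side of it, at -0.16 and 0.02. The count at an unadjusted p under 0.05 was 3 of 12 for SLC5A, 2 of 12 for SLC2A and 2 of 18 for SLC6A, beside 10.6% of all genes. It was 1 each for SLC1A, SLC7A and SLC38A and 0 for SLC3A, SLC15A and SLC36A, and with so few genes a family nothing is read from these counts.

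**Figure D2:**
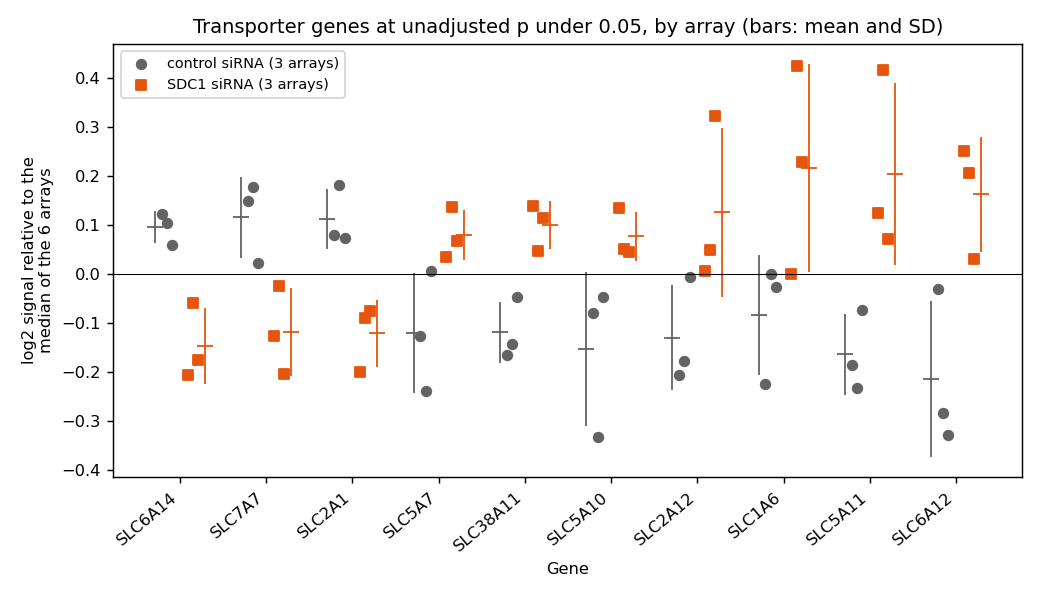
Log2 signal relative to the median of the 6 arrays (vertical axis) for the 10 transporter genes at an unadjusted p under 0.05 (horizontal axis), with each control array (grey circles) and each SDC1 siRNA array (orange squares). Horizontal ticks with bars are means and SD of 3 arrays; SLC6A14, SLC7A7 and SLC2A1 are lower with SDC1 siRNA and the other 7 are higher, and the groups overlap only in SLC1A6, where 1 array of each group is at 0.00.

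Among the facilitative sugar carriers, the member nearest to the threshold was SLC2A1 (GLUT1), the basal glucose carrier of most proliferating cells. It was at 0.08, 0.18 and 0.07 in the control arrays and at -0.20, -0.09 and -0.07 in the SDC1 siRNA arrays. Every SDC1 siRNA array was below every control array. The difference was -0.23 ± 0.07 (log2, standard error; 1.18-fold lower, limma adjusted p = 0.318). Its 2 probe sets, in the classes of 8 to 16 and 4 to 8, gave -0.23 and -0.21. It was between -0.26 and -0.19 when any 1 array was left out.

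SLC2A12 (GLUT12) was higher in every SDC1 siRNA array, at -0.20, -0.18 and -0.01 with control siRNA and 0.01, 0.05 and 0.32 with SDC1 siRNA. The difference was 0.26 ± 0.10 (adjusted p = 0.428), and 0.16 without SDC1 siRNA replicate 3. Its probe set in the dimmest class was at 0.21, with overlapping groups. SLC2A3 (GLUT3), a carrier of high affinity, was measured by 3 probe sets in the brightest class at 0.00, 0.18 and 0.05, and its gene value was 0.08 ± 0.07. SLC2A14 is a near copy of SLC2A3, so their signals may be shared. Of the GLUT carriers of absorptive enterocytes, SLC2A5, which carries fructose, was at 0.12 ± 0.09, and SLC2A2, the basolateral GLUT2, at -0.03 ± 0.09, read by a single dim probe set. The arrays of the groups overlapped in all 3 of SLC2A3, SLC2A5 and SLC2A2. SLC2A3 was at 0.033 without SDC1 siRNA replicate 1, and SLC2A5 at 0.071 and 0.20 without control replicates 2 and 3.

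SLC2A13, the proton-coupled inositol carrier HMIT, held the lowest p among all 189 member probe sets and was picked for that reason. One of its 5 probe sets, all in the dimmest class, was at -0.43 ± 0.08 (limma adjusted p = 0.337 over all probe sets). The other 4 lay between -0.08 and 0.05, and the gene value was -0.10 ± 0.09.

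Among the SLC5 carriers, the greatest difference was in SLC5A11 (SMIT2), a carrier of myo-inositol. Its values were -0.19, -0.23 and -0.07 in the control arrays and 0.13, 0.42 and 0.07 in the SDC1 siRNA arrays, with SDC1 siRNA replicate 2 the highest. The difference was 0.37 ± 0.10 (1.29-fold, adjusted p = 0.273), and 0.26 without that replicate. It had 1 probe set, in the class of 4 to 8.

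SLC5A10 (SGLT5), a sugar carrier of the kidney, was at -0.08, -0.33 and -0.05 against 0.14, 0.05 and 0.05. The groups did not overlap, and control replicate 2 stood lowest. Its difference of 0.23 ± 0.09 (adjusted p = 0.422) was 0.14 without that array. SLC5A7, the choline carrier of cholinergic neurons, was at -0.13, -0.24 and 0.01 against 0.04, 0.14 and 0.07, a difference of 0.20 ± 0.08 from 2 probe sets in the dimmest class (adjusted p = 0.44). It was 0.14 without control replicate 2.

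SLC5A1 (SGLT1), the apical glucose carrier of the small intestine, did not pass. It was at -0.10, 0.09 and -0.02 with control siRNA and 0.03, -0.04 and 0.17 with SDC1 siRNA, and the groups overlapped. Its difference was 0.06 ± 0.08, with a 95% interval from -0.13 to 0.26, and it ran from 0.0072 to 0.12 with 1 array left out. SLC5A12, a lactate carrier, was the SLC5A gene below 0 (-0.12 ± 0.07; named after its values were seen).

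Among the acidic and neutral amino acid carriers of the SLC1A family, SLC1A6 (EAAT4), a glutamate carrier of cerebellar Purkinje cells, had the lowest p. It was at -0.22, 0.00 and -0.03 with control siRNA and 0.00, 0.42 and 0.23 with SDC1 siRNA, so the groups touched. The difference of 0.30 ± 0.12 (adjusted p = 0.412) came from its probe set in the class of 4 to 8. The probe sets in the dimmest class went the other way, at -0.16 and -0.21, and the mean of all 3 was -0.02. It was 0.20 without SDC1 siRNA replicate 2.

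SLC1A1 (EAAT3), which takes up glutamate at the apical membrane of enterocytes, was at 0.06 ± 0.10, and SLC1A5 (ASCT2), a glutamine exchanger, at -0.02 ± 0.08. The 95% interval of SLC1A5 ran from -0.20 to 0.15. The groups overlapped for both genes. A probe set of SLC1A3 (EAAT1) in the class of 4 to 8 was at -0.46 ± 0.15, while the probe set in the brightest class, which stands for the gene, was at -0.07 ± 0.09; both were singled out with their values in view.

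The SLC3 heavy chains and the SLC7 light chains they carry to the membrane lay on both sides of 0. Of 10 measured, 5 lay on each side of 0 around a median of 0.00, where 52.1% of all genes were above 0. At an unadjusted p under 0.05 there was 1, against 10.6% of all genes. SLC7A7 (y+LAT1), the light chain that releases cationic amino acids at the basolateral membrane, was at 0.15, 0.18 and 0.02 with control siRNA and -0.13, -0.02 and -0.20 with SDC1 siRNA. No array overlapped. Its difference was -0.23 ± 0.08 (1.18-fold lower, adjusted p = 0.354), from 1 probe set in the class of 4 to 8.

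SLC7A11 (xCT), the cystine and glutamate exchanger, was at 0.05, 0.03 and 0.10 with control siRNA and -0.08, -0.18 and -0.03 with SDC1 siRNA. The groups did not overlap, and its 3 probe sets gave -0.17, -0.13 and -0.13. The gene's difference was -0.15 ± 0.07 (adjusted p = 0.49). SLC3A2, the heavy chain CD98hc that both of these light chains bind, was at 0.00, -0.02 and -0.00 against -0.02, 0.01 and 0.05, and the groups overlapped. Its difference was 0.02 ± 0.06, with a 95% interval from -0.12 to 0.17.

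SLC7A5 (LAT1), which carries large neutral amino acids and binds the same heavy chain, was at 0.06 ± 0.07 with an interval from -0.10 to 0.22. SLC7A8 (LAT2) was at 0.11 ± 0.09, and its 3 probe sets of the brightest class gave 0.17, 0.16 and -0.00. It was 0.026 without control replicate 2 and 0.028 when its 5 probe sets were averaged. The pair that absorbs cystine and cationic amino acids in intestine and kidney gave -0.16 ± 0.08 for the heavy chain SLC3A1 (rBAT) and 0.11 ± 0.135 for the light chain SLC7A9. All 3 probe sets of SLC3A1 were below 0 and in the dimmest class, and control replicate 2 overlapped the SDC1 siRNA arrays. The 5 carriers of the cationic branch of SLC7A lay between -0.045 and 0.16 with a median of -0.02. At an unadjusted p under 0.05 there were 0 of them, against 10.6% of all genes.

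The SLC6A family, of sodium- and chloride-coupled carriers, held the members at both ends of the range. SLC6A12 (BGT1), which carries betaine and GABA, was at -0.03, -0.28 and -0.33 with control siRNA and 0.25, 0.21 and 0.03 with SDC1 siRNA. All SDC1 siRNA arrays were higher, although control replicate 1 and SDC1 siRNA replicate 3 lay close together. The difference was 0.38 ± 0.10 (1.30-fold, adjusted p = 0.261), from 1 probe set in the dimmest class.

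SLC6A14 (ATB0,+), a concentrative carrier of neutral and cationic amino acids in colon and lung, was at 0.12, 0.11 and 0.06 with control siRNA and -0.21, -0.06 and -0.18 with SDC1 siRNA. No array overlapped. The difference was -0.24 ± 0.07 (1.18-fold lower, adjusted p = 0.299), also from 1 probe set in the dimmest class.

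SLC6A20 (SIT1), the apical carrier of proline and other imino acids, was at -0.04, -0.04 and -0.06 against 0.24, 0.14 and 0.01, a difference of 0.17 ± 0.08. Its 2 probe sets, both in the dimmest class, gave 0.25 and 0.10. The groups did not overlap either for the taurine carrier SLC6A6 (0.14 ± 0.07, from 2 probe sets in the brightest class), for SLC6A16, an orphan carrier (0.18 ± 0.08), and for SLC6A17, a vesicular carrier of neurons (0.14 ± 0.08), all higher. SLC6A17 was at 0.074 without control replicate 2, and SLC6A6 at 0.084 when its 5 probe sets were averaged. They did not overlap for the noradrenaline carrier SLC6A2 (-0.05 ± 0.06), which was lower, at -0.028 without control replicate 2. SLC6A19 (B0AT1), the main apical carrier of neutral amino acids in the small intestine, was at 0.06, -0.05 and -0.06 against -0.13, 0.10 and -0.04. The groups overlapped, and the difference was -0.01 ± 0.08 with an interval from -0.19 to 0.18.

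Of 12 measured transmitter carriers of the SLC1A and SLC6A families, 9 were above 0 with a median of 0.05 (52.1% of all genes were above 0), and 1, SLC1A6, was at an unadjusted p under 0.05, where 10.6% of all genes were. In the reference gene table SLC6A12 is next to SLC6A13 (GAT2) on chromosome 12. SLC6A13, chosen with its values in view, was at 0.13 ± 0.08, and its 2 probe sets gave 0.34 and -0.07. SLC6A18, the neighbour of SLC6A19 on chromosome 5, was at 0.11 ± 0.11.

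In the SLC38A family of glutamine and neutral amino acid carriers, SLC38A11, an orphan member, had the lowest p. It was at -0.16, -0.14 and -0.05 with control siRNA and 0.14, 0.05 and 0.12 with SDC1 siRNA, with no overlap. The difference was 0.22 ± 0.07 (adjusted p = 0.322), from 1 probe set in the dimmest class. SLC38A7, a lysosomal glutamine carrier, was at 0.07, 0.04 and -0.00 against -0.06, -0.13 and -0.03 and did not overlap; its 4 probe sets gave -0.23, -0.19, -0.06 and 0.05, and its difference was -0.11 ± 0.07. SLC38A2 (SNAT2), which is induced when amino acids run short, was at 0.03 ± 0.07 with an interval from -0.13 to 0.19, from 3 probe sets in the brightest class. SLC38A6, named after its values were seen, was at -0.24 ± 0.15, with control replicate 2 at 0.48 and SDC1 siRNA replicate 2 at -0.33 while the other 4 arrays lay between -0.06 and 0.04.

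The proton-coupled carriers did not pass either. SLC36A1 (PAT1), an apical carrier of small amino acids, was at 0.27, -0.04 and 0.22 with control siRNA and -0.09, 0.04 and -0.11 with SDC1 siRNA. Control replicate 2 overlapped the SDC1 siRNA arrays. The difference of -0.20 ± 0.10 (adjusted p = 0.511) came from the probe set in the brightest class, and the other was at 0.13 ± 0.12, so that the mean of both was -0.035. SLC15A1 (PEPT1), the apical peptide carrier of the intestine, was at -0.35, 0.02 and 0.16 against -0.02, -0.03 and 0.16. The groups overlapped, and the difference was 0.10 ± 0.13 with an interval from -0.20 to 0.39. SLC15A4, a lysosomal carrier of histidine and peptides, was at -0.11 ± 0.08 (adjusted p = 0.662), the lowest p of its family, and at -0.051 without control replicate 2.

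**Figure D3:**
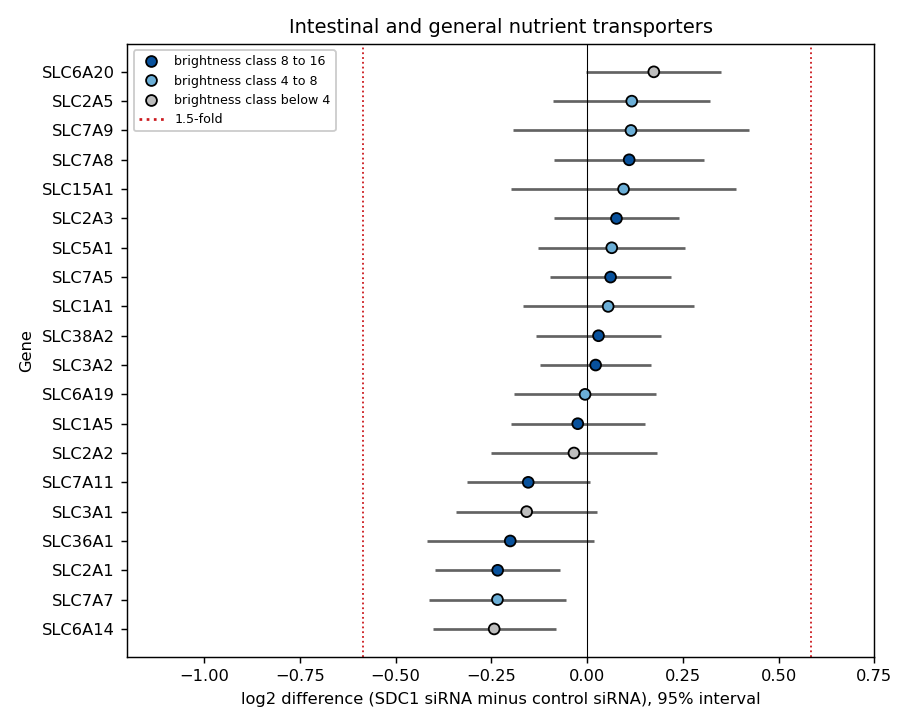
Log2 difference (SDC1 siRNA minus control siRNA, horizontal axis) with its 95% interval for 20 intestinal and general nutrient transporters (vertical axis), coloured by brightness class. Dotted lines mark 1.5-fold in each direction: all 20 intervals lie between them, and the intervals of SLC2A1, SLC7A7 and SLC6A14 lie below 0 before any adjustment.

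By place in the enterocyte, the 11 apical carriers had 6 genes above and 5 below 0, with a median of 0.06 and 1 gene, SLC6A14, at an unadjusted p under 0.05, beside 52.1% of all genes above 0 and 10.6% at that p. The 7 basolateral carriers had 3 above and 4 below 0, with a median of -0.03 and 1 gene, SLC7A7, at that level. Another list held 9 known targets of ATF4, the transcription factor of the amino acid response. It shares SLC1A5 with the apical list, and SLC3A2 and SLC38A2 with the basolateral list. These 9 lay between -0.15 (SLC7A11) and 0.06 (SLC7A5) with a median of -0.00, and 0 of them reached that level.

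Of the 7 members whose promoter held the ATF4 composite element, the stretches around the match are shown because they include 4 of those target carriers, SLC1A4, SLC1A5, SLC3A2 and SLC7A1. Windows from 250 bases before to 50 after the start were taken from RefSeq (GRCh38.p14) for 63 of the 81 genes. SLC7A11, also on the list of ATF4 targets, was among the 18 without a window and was not searched. TGATGNAA was searched on both strands and stands in capitals; the sequences read 5′ to 3′ along the gene's strand.
SLC1A3 (chr5:36596348-36596395, + strand): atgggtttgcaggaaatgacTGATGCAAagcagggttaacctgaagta
SLC1A4 (chr2:64989372-64989419, + strand): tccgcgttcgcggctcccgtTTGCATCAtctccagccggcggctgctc
SLC1A5 (chr19:46784884-46784931, - strand): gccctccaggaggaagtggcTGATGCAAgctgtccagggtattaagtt
SLC2A5 (chr1:9069772-9069819, - strand): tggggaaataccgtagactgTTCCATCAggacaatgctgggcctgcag
SLC38A1 (chr12:46266493-46266540, - strand): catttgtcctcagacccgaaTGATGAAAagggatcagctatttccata
SLC3A2 (chr11:62881716-62881748, + strand): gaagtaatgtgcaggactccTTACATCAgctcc
SLC7A1 (chr13:29595654-29595701, - strand): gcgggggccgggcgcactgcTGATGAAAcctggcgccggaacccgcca

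Matches were found in 7 of 86 member windows (8.14%), against 3.62% of all 35116 windows of that length. The differences of the same 7 genes were -0.07, -0.06, -0.02, 0.12, 0.04, 0.02 and -0.04 in the order shown. At an unadjusted p under 0.05 there were 0 of them, against 10.6% of all genes. The other motifs searched were ACGTG, the core of the hypoxia response element, found in 25.6% of member windows and 21.4% of all, and TGACNNNGC, the core of the antioxidant response element, found in 10.5% and 13.3%. These searches also covered both strands, and matches of ACGTG on opposite strands overlap wherever CACGTG occurs. A match describes letters only.

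The promoter windows of SLC2A1 and SLC6A14 are printed in full because these were the lower members whose unadjusted p stayed under 0.05 without any 1 of the 6 arrays, which was known when they were chosen. Neither window held any of the 3 motifs.
SLC2A1 (chr1:42958819-42959118, - strand): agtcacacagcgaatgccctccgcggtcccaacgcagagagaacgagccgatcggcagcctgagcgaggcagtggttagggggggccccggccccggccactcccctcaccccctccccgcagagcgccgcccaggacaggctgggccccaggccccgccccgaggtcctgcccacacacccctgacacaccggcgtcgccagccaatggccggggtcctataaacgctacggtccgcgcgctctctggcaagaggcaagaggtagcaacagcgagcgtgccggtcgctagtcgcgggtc
SLC6A14 (chrX:116436356-116436655, + strand): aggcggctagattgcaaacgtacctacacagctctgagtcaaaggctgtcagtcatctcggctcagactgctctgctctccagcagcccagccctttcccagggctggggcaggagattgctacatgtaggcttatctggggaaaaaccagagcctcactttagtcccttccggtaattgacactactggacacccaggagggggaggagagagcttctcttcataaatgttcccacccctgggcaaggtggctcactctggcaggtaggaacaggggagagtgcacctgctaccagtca

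Probe sets of the same transporter often disagreed. Of 50 members with more than 1 probe set, 30 had probe sets on both sides of 0, and the median spread between a gene's lowest and highest probe set was 0.19. Tested singly, 0 of the 189 member probe sets passed an adjusted p of 0.05, as did 0% of all 54613, and 24 were at an unadjusted p under 0.05 (12.7%, against 8.33% of all). Of these 24, 13 were higher, 11 lower, and 12 were in the dimmest class, which held 64 of the 189. By class, 1 of 23 member genes at 8 to 16 was at an unadjusted p under 0.05 (9.59% of all genes of that class), 5 of 41 at 4 to 8 (12.2%) and 4 of 17 below 4 (8.97%). The median absolute difference was 0.06 in the brightest class and 0.16 in the dimmest. The widest spreads were in SLC1A6, SLC2A13, SLC6A2 and SLC6A13, the last with 0.34 and -0.07.

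**Figure D4:**
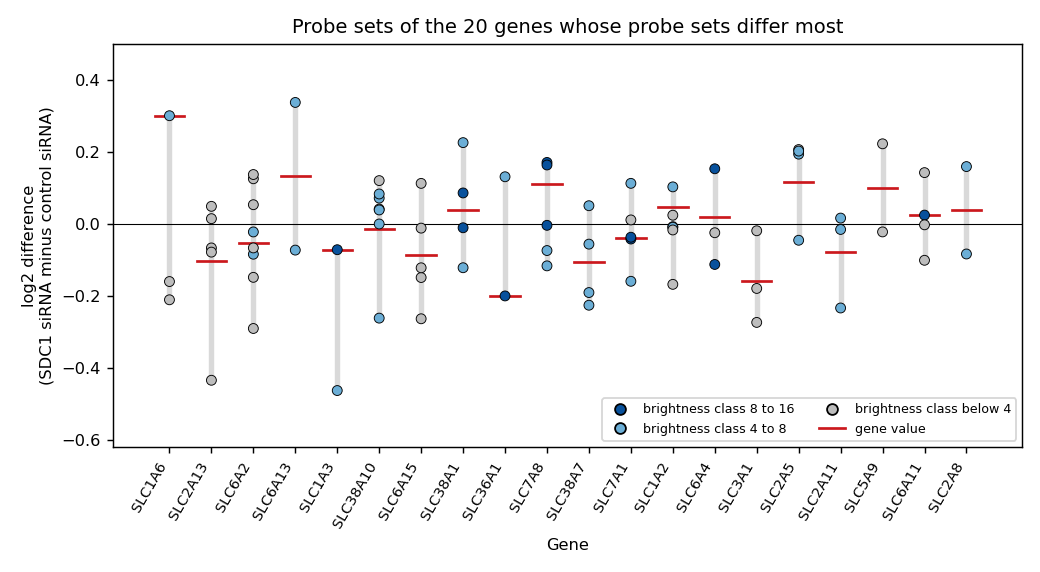
Log2 difference (SDC1 siRNA minus control siRNA, vertical axis) of every probe set of the 20 members whose probe sets differ most (horizontal axis, widest spread first). Points are probe sets coloured by brightness class, grey bars join the lowest and highest and red lines mark the value used for the gene; SLC1A6 runs from -0.21 to 0.30 and SLC2A13 from -0.43 to 0.05.

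Genes that work with these carriers did not pass the threshold either. Of 10 measured brush border partners and scaffolds, 8 were in the dimmest class. Of the same 10, 3 were above and 7 below 0, where 52.1% of all genes were above. At an unadjusted p under 0.05, where 10.6% of all genes were, there were 0 of these partners. Among them the scaffold PDZK1 was at -0.19 ± 0.11 and the aminopeptidase ANPEP, which frees amino acids at the brush border, at 0.16 ± 0.11. PDZK1 was at -0.062 without control replicate 1, and ANPEP at 0.062 and 0.28 without control replicates 2 and 3. Of 12 other carriers and ion pumps, 1 was at that level: ATP1B1, the beta subunit of the sodium pump that maintains the gradient for sodium-coupled uptake, at 0.25 ± 0.09 (adjusted p = 0.405), with no overlap between the groups. SLC17A9, a vesicular nucleotide carrier, was at 0.17 ± 0.07 and did not overlap either. Of these 12, 4 did not overlap (33.3%, against 16.7% of all genes), 3 higher and 1 lower. The others, named after their values were seen, were KCNQ1 (0.10 ± 0.07) and the lower SLC43A3 (-0.11 ± 0.08). With so few genes nothing is read from this count. Of 17 regulators of transporters 0 were at that level, with HIF1A at 0.19 ± 0.10 and MYC at 0.15 ± 0.08, both overlapping; HIF1A was at 0.13 and 0.29 without control replicates 3 and 2, and MYC at 0.097 without SDC1 siRNA replicate 2. Of the 17 regulators, 1 had groups without overlap (5.88%, against 16.7% of all genes). This was ATF4, lower at -0.09 ± 0.07 and named after its values were seen. The medians of the partner, carrier and regulator lists were -0.04, 0.04 and -0.02.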

How the data were processed

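The deposited log2 values had been made with RMA by the authors, per the submitters' processing notes. They are centred: 54675 of 54675 probe sets had a median of 0 across the 6 arrays (tolerance 1e-06). No source used here names the software or the centring step. Gene names came from the platform's annotation. Each gene took the mean of those of its probe sets that fell in the brightest class it had, read from the spacing of the stored numbers (tolerance 1e-07). The fit was limma's lmFit and eBayes (version 3.58.1, R 4.3.3) with group as the only term and 62 control probe sets left out. Adjustment was by Benjamini-Hochberg, across all genes or all probe sets. A ± after a difference is the moderated standard error, and intervals cover 95%. Precision is limited by the number of arrays. In simulated arrays of 19775 genes, 50 genes were shifted by each of 0.5, 1, 1.5 and 2 (log2) at once. The fit recovered 54% of those shifted by 0.5 and 90% of those shifted by 1, and called 6 unchanged genes. The adjusted threshold is stricter when fewer genes change. With 5 genes called in the real fit, these shares may overstate what it could detect here.

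The members, lists and gene rule were chosen with earlier results of these data known. Named genes were SDC1, up to 10 members in each direction with the lowest p and separate groups, the lowest p of each family, 20 intestinal or general nutrient carriers, and up to 2 genes per partner list; others are marked. The replicate numbers showed no sign of pairing: same-numbered deviations correlated at -0.01, -0.26 and -0.11, and others between -0.15 and 0.21. Deviations from a mean of 3 arrays constrain one another, so these values cannot show that the arrays were unpaired. Further fits used the replicate number as a block, left out each array, normalized by quantiles, centred arrays, weighted arrays, fitted robustly, summarised probe sets otherwise, dropped dim genes or took an adjusted p of 0.25. Scan dates and other batches were not known, so none was tested.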

Additional observations from a re-analysis of the deposited data

How the results depend on the processing

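The count of 0 transporter genes past the threshold was the same under every alternative run, and at an adjusted p of 0.25 with all other choices kept. The lowest adjusted p of a member lay between 0.159 (array weights) and 0.553 (without SDC1 siRNA replicate 2). With the replicate block 0 of all 19775 genes passed 0.05, and with 1 array left out 0 or 1 did. A count of 0 members was therefore close to fixed in those runs. In the other runs between 3 (mean of all probe sets) and 39 (array weights) of all genes passed. Of the 189 probe sets tested singly, 0 passed an adjusted p of 0.05 in each run made with them. In the main fit 0 of all 54613 probe sets passed, those of SDC1 included, so this count does not set the transporters apart. With the replicate block 0 members passed (lowest adjusted p = 0.365), and 11 rather than 10 were at an unadjusted p under 0.05. Whether the numbers pair the arrays is not known. The count at an unadjusted p under 0.05 ran from 7 to 15 (array weights) over all alternatives. It was 7 without SDC1 siRNA replicate 3, and 7 of the 64 members measured in the brighter classes. Without _s_at and _x_at probe sets it was 8 of 68. Leaving out an array gave 22 to 29 members without overlap, against 18, but fewer arrays overlap less often. With all 6 arrays kept, the count was 22 after quantile normalization, 21 after centring arrays and 17 when a gene's probe sets were all averaged. It was 12 of the 64 members in the brighter classes and 13 of the 68 without _s_at and _x_at probe sets. The share of all genes without overlap is not known for these runs, so nothing is read from the counts. SDC1 lost its call with the block (adjusted p = 0.0929), after quantile normalization (adjusted p = 0.0831) and in each of the 6 fits with 1 array left out, with differences from -0.92 to -0.78.

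Family medians depended on both the rule for probe sets and single arrays. With the mean of all probe sets they were -0.024 for SLC1A, -0.054 for SLC36A and -0.041 for SLC38A. Among the brighter classes they were 0.057 for SLC2A and 0.022 for SLC3A (SLC3A2 alone), and leaving out _s_at and _x_at probe sets, which can match several transcripts, gave -0.15 for SLC3A. With array weights SLC2A was at 0.035. With 1 array left out the medians ran from -0.015 to 0.096 for SLC1A, -0.019 to 0.059 for SLC2A, 0.042 to 0.11 for SLC6A, 0.09 to 0.19 for SLC5A, -0.088 to -0.0051 for SLC15A and -0.042 to 0.028 for SLC38A. Of 40 named genes 4 changed sign with all arrays in the fit: SLC1A6 with the mean of all probe sets (-0.024), SLC7A8 without _s_at and _x_at probe sets (-0.0041), and SLC2A2 (0.0049) and SLC1A5 (0.012) with array weights. With 1 array left out, SLC15A1 ran from -0.0498 to 0.20, SLC1A1 from -0.016 to 0.13, SLC1A5 from -0.057 to 0.035, SLC2A2 from -0.11 to 0.051, SLC38A2 from -0.0039 to 0.0802, SLC6A19 from -0.067 to 0.047 and SLC7A9 from -0.041 to 0.24. The cause was not tested.

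Without levels no detection call was made, so it is not known which members of the dimmest class were above background.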
